A study of Mus musculus with 12 samples.

Results

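Interferon-signature B cells, annotated B-ISG by the authors, are splenic B cells that carry high levels of interferon-induced transcripts. They were taken as every cell with that annotation in the deposited cell table, which gave 310 of 22285 cells. WT 1 held 59 of them, WT 2 held 123, SLE.yaa 1 held 47 and SLE.yaa 2 held 81. The reference was the cells annotated B in the same mouse, 11450 in all (3129, 3403, 2465 and 2453 in the same order of mice). All 4 mice were male, and white blood cells of the spleen were enriched by magnetic beads against CD45 before capture in 10x Genomics droplets. The labels give C57BL/6 as the strain of the 2 WT mice and B6.Sle1yaa as that of the 2 SLE.yaa mice. The latter strain joins the Sle1 lupus susceptibility interval of chromosome 1 with Yaa, a piece of the X chromosome including Tlr7 that is moved onto the Y chromosome. The tag of the group label speaks of a chimera, without saying if bone marrow was transferred. The deposited age, without a unit, was 14.4 in WT and 14.9 in SLE.yaa mice, so age and genotype cannot be told apart.

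Type I interferons signal through IFNAR1 and IFNAR2 to a transcription factor complex with IRF9, which binds the interferon-stimulated response element (ISRE) in promoters of antiviral genes. Type II interferon, IFN-gamma, signals through IFNGR1 and IFNGR2 to dimeric factors, which bind gamma-activated sequences (GAS) near genes such as those of the immunity-related GTPases. Many genes respond to both. A blood or spleen interferon signature is a hallmark of lupus, and TLR7, a sensor of single-stranded RNA in B cells and dendritic cells, lies on the Yaa segment.

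Promoters of 7 genes are shown first, chosen because they hold the 2 kinds of interferon element. The windows of Irf7, Cmpk2 and Oasl1, which fell in SLE.yaa mice, hold neither. Each run covers 250 bases before to 50 bases after the start of the gene, from RefSeq on GRCm38.p6, written 5′ to 3′ on the strand of the gene. Capitals mark matches on either strand to GAAANNGAAA (the core of an ISRE, also read as TTTCNNTTTC) or to TTCNNNGAA (the core of a GAS). Ifit3, Ifit1, Isg15 and Rsad2 are the 4 genes taken here to mark these cells, Igtp is a GTPase gene with both elements, and Socs1 and Serpina3g are genes that rose in SLE.yaa mice.
Ifit3, chr19:34583279-34583578, plus strand: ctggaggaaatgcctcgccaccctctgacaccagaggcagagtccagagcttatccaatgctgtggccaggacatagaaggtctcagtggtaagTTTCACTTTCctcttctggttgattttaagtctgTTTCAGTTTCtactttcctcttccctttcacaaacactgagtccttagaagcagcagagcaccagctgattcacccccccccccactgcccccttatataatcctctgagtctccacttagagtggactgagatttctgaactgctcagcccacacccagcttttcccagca
Ifit1, chr19:34640639-34640938, plus strand: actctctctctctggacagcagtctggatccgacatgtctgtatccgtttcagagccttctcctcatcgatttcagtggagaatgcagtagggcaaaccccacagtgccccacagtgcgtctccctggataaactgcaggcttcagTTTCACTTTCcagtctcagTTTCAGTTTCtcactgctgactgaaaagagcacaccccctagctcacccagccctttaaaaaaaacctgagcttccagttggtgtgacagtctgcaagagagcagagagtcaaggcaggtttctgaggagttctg
Isg15, chr4:156200769-156201068, minus strand: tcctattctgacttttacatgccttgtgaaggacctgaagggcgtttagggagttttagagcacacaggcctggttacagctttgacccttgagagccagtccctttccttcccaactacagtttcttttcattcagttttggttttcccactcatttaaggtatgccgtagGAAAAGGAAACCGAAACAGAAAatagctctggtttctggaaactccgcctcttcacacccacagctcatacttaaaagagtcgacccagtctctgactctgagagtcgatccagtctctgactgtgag
Rsad2, chr12:26456403-26456702, minus strand: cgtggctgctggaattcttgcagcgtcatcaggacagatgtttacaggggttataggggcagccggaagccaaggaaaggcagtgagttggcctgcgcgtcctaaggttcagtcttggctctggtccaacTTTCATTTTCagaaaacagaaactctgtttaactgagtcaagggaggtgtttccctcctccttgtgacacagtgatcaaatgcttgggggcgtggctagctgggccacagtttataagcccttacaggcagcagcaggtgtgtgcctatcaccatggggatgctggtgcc
Igtp, chr11:58199306-58199605, plus strand: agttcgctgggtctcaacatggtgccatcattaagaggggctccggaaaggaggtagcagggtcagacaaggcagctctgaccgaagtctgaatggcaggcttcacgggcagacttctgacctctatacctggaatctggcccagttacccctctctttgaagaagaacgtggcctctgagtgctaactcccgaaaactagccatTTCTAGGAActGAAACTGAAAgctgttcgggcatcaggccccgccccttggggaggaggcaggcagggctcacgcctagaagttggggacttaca
Socs1, chr16:10785487-10785786, minus strand: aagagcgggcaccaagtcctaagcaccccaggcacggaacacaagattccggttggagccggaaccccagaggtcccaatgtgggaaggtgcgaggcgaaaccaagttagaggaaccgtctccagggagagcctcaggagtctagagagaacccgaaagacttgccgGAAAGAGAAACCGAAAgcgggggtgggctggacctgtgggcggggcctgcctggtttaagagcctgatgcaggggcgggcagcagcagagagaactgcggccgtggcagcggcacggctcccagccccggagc
Serpina3g, chr12:104235897-104236196, plus strand: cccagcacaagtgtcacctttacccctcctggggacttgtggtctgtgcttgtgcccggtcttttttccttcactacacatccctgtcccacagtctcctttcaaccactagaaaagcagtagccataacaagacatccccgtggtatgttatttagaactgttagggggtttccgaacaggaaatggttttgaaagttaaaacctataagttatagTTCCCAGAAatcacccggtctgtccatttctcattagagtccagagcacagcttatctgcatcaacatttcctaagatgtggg
An ISRE core was present in 4 of 4 of the marker genes. It began 156 and 122 bases before the start of Ifit3, 104 and 85 bases before that of Ifit1, 78, 72 and 66 bases before that of Isg15, and 120 bases before that of Rsad2. Of all 32851 such windows, 3.44% held an ISRE core and 8.3% a GAS core. Counted by gene, with a match in any of its windows, the shares were 3.99% and 9.55% of 27025 genes. The list counts that follow are by gene. Windows were matched for 45 genes of a list of antiviral effectors, and 20 of them (44.4%) held an ISRE core. Among GTPase genes induced by IFN-gamma, 9 of 10 matched genes held an ISRE core and 6 of 10 a GAS core. A match describes the letters and not a bound site.

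The label was checked against markers of cell type. Cd79a, a signalling chain of the B cell receptor, was above 0 in all 310 B-ISG cells. Cd3e, a T cell receptor chain, was above 0 in 0, 1, 0 and 3 of them, and Lyz2, a myeloid lysozyme, in 2, 3, 0 and 7. Cells with at least 2 markers of another cell type made up 3.39%, 2.44%, 8.51% and 8.64% of B-ISG cells and 2.24%, 2.06%, 4.54% and 10.2% of B cells. The median B-ISG cell held 3262, 3367, 4873 and 4624 UMIs and the median B cell 3218, 3389, 4778 and 4518, so depth differed between the groups but little between the cell types of a mouse. The libraries shared 254 cell barcodes, 5 of them in B-ISG cells.

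B-ISG cells were a small share of the spleen in every mouse, and the groups overlapped. Of all cells they made up 1.07% (exact binomial 95% interval 0.818 to 1.38) and 2.16% (1.8 to 2.57) in WT mice, and 0.947% (0.697 to 1.26) and 1.32% (1.05 to 1.64) in SLE.yaa mice. Of the annotated B, B-ISG and B-early cells together they made up 1.71%, 3.26%, 1.8% and 3.0% in the same order. Within each group the replicates lay further apart than the group means did from each other on the second denominator, and WT 2 was the highest of 4 on both. These intervals cover counting error only.

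The marker transcripts were concentrated in B-ISG cells in each mouse. Ifit3, whose product binds viral RNA together with Ifit1, was above 0 in 49.2%, 67.5%, 36.2% and 39.5% of B-ISG cells (WT 1, WT 2, SLE.yaa 1, SLE.yaa 2) and in 1.34%, 1.7%, 2.19% and 2.69% of B cells. Isg15, a ubiquitin-like protein attached to other proteins, was above 0 in 45.8%, 67.5%, 48.9% and 46.9% of B-ISG cells and in 6.9%, 7.43%, 10.3% and 11% of B cells. Rsad2, the nucleotide-modifying enzyme viperin, was above 0 in 23.7%, 34.1%, 8.51% and 13.6% of B-ISG cells, against 0.32% to 0.611% of B cells. The share with a marker transcript was thus highest in WT 2 for these 3 genes, whereas in B cells it was higher in both SLE.yaa mice than in both WT mice for Ifit3 and Isg15. Shares follow depth as well as expression, and the SLE.yaa cells were the deeper ones.

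B-ISG cells differed among themselves in how many of the 4 marker transcripts they held. Of 310 cells, 80 held none (25.8%, exact binomial interval 21 to 31.1), 83 held 1, 60 held 2, 50 held 3 and 37 held all 4. Cells with none made up 37.3% and 9.76% in the WT mice and 34% and 37% in the SLE.yaa mice. Cells with 3 or 4 made up 25.4%, 44.7%, 10.6% and 14.8%, so both WT mice lay above both SLE.yaa mice. Of 11450 B cells, 10195 (89%) held none and 9 held 3 or more.

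**Figure D1:**
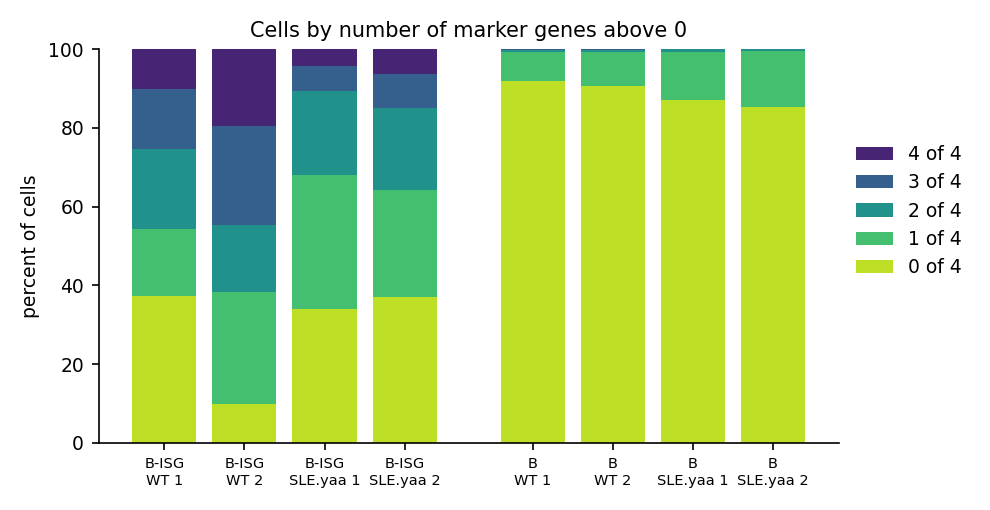
Share of B-ISG cells (percent, vertical axis) that held 0 to 4 of the transcripts Ifit3, Ifit1, Isg15 and Rsad2 in each of the 4 mice. Cells with 3 or 4 of them took up 44.7% in WT 2 and 10.6% in SLE.yaa 1, and cells with none took up 9.76% and 34%.

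Levels below are means over the cells of a mouse, scaled to a sum of 1000000 and between profiles with TMM factors (vpm). For B-ISG against B all 8 profiles were scaled together, and for SLE.yaa against WT the 4 profiles of a cell type were, so the same level can differ by a few percent between the accounts. Since the clusters were made from these genes, the difference of B-ISG from B is a description and was not tested. Differences and changes are on the log2 scale after adding 10 vpm, which understates the change of low genes.

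Relative to B cells, B-ISG cells held more of a broad interferon programme and kept their B cell identity. Of 8138 genes measured, 130 (1.6%) were higher by 1 or more on average with the same sign in all 4 mice, and 13 (0.16%) were lower. Ifit3 stood at 608.4, 1089, 204.5 and 294.0 vpm in B-ISG cells and at 4.891, 5.688, 5.292 and 7.578 vpm in B cells, a mean log2 difference of 4.86. Slfn5, of the Schlafen family of growth and virus regulators, stood at 450.1, 799.6, 272.7 and 519.1 vpm against 14.76, 26.62, 31.41 and 51.8 vpm (3.64). Irf7, the transcription factor that amplifies type I interferon production, stood at 356.2, 626.5, 222.7 and 207.0 vpm against 14.76, 20.55, 24.67 and 21.77 vpm (3.45). No B-ISG profile overlapped a B profile for these 3 genes, and the WT differences were the larger ones: for Irf7 they were 3.89 and 4.38 in WT against 2.75 and 2.77 in SLE.yaa mice. The other genes among the 15 with the largest differences were Isg15, Usp18 (which removes Isg15 and blocks the type I receptor), Ifit1, Ifit2, Rtp4, Ifit3b, Zbp1 (a sensor of Z-form nucleic acid), Oasl2, Ifi208, Rsad2, Oas3 and Oasl1, between 2.65 and 3.62.

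By list, 44 of 51 measured antiviral effectors were higher by at least 1 in B-ISG cells (list median 2.12, against -0.07 for all genes measured). So were 11 of 14 Schlafen and p200 genes (median 1.77) and 13 of 16 GTPases induced by IFN-gamma (median 1.76). Of 21 receptor and signalling genes, 6 were, among them Stat2, Irf7, Nmi and the inhibitors Socs1 and Usp18. The receptor chains were not among them: Ifnar1 stood at 29.68 to 45.01 vpm in B-ISG cells and 49.21 to 56.83 vpm in B cells, and Ifngr1 at 75.01 to 98.19 against 84.75 to 90.22 vpm. Sensors that were higher were Tlr7 (mean difference 1.65) and the RNA helicases Ddx58 (RIG-I), Ifih1 (MDA5) and Dhx58, 4 of 14 measured. Of 22 MHC class I genes only H2-T24 and Nlrc5, the transactivator of the class I genes, passed 1, with a list median of 0.46. No gene of 11 for MHC class II (median 0.05) or of 12 for B cell identity (median 0.03) moved that far. Cd79a, for example, stood at 4378, 4147, 3363 and 3970 vpm in B-ISG cells and 4138, 3435, 3523 and 3607 vpm in B cells.

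Genes lower in B-ISG cells were few. The haemoglobin gene Hbb-bs stood at 0, 4.676, 0 and 0 vpm in B-ISG cells against 0.9783, 95.33, 108.5 and 257.7 vpm in B cells, and Hba-a1 and Jchain followed (mean differences -2.23 and -1.70). Hbb-bs was above 0 in only 0.352%, 0.705%, 0.325% and 0.652% of B cells, and in 0, 1, 0 and 0 B-ISG cells. With so few positive cells, its low level in 47 to 123 B-ISG cells a mouse cannot be told apart from sampling. Summed over the erythroid list, B cells held 2.49, 168.8, 225.9 and 471.2 vpm and B-ISG cells 9.893, 7.014, 0 and 6.0 vpm; the part of red cell RNA in these differences was not tested. Egr1, an immediate-early factor induced by antigen receptor signals, stood at 0, 16.37, 4.545 and 3.0 vpm against 26.59, 36.33, 31.92 and 23.12 vpm, and Egr3 was lower too (-1.19). The sphingosine receptor gene S1pr3, a marginal zone gene, stood at 0, 4.676, 0 and 0 vpm against 21.88, 24.04, 8.707 and 4.988 vpm. Cd69, an early activation antigen that interferon also induces, went the other way, with 202.8, 252.5, 227.3 and 201.0 vpm against 65.1, 88.65, 112.1 and 141.4 vpm. So did Jun: of 14 activation genes measured, Cd69 and Jun were higher by at least 1, and Egr1 and Egr3 were lower by at least 1. The remaining named genes were Rilpl2, S100a6, Ckap4, AI987944, Nrgn, Marcks, Ubash3b, Cd9 and Ahdc1, between -1.36 and -0.90.

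Transcript levels in B-ISG cells differed between the SLE.yaa and the WT mice, which also differed in deposited age. In limma fits with Benjamini-Hochberg adjustment over 7611 genes, 46 were higher in SLE.yaa than in WT mice (0.604%) and 21 lower (0.276%), or 0.88% in all. Ifit1, Ifit3 and Rsad2 fell in the SLE.yaa cells, and Iigp1, Socs1, Socs3, Serpina3g and Tbx21 were among the genes that rose. With 2 mice a group, 37.3% of all genes tested did not overlap between the groups.

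**Figure D2:**
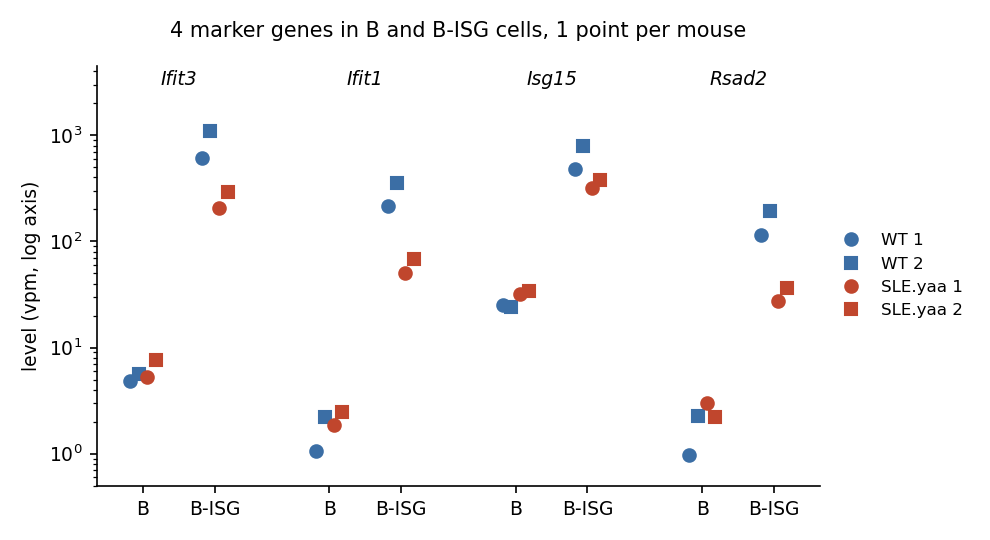
Levels of the 4 marker genes (vpm, logarithmic axis) in B-ISG and B cells, 1 point per mouse. In B-ISG cells both WT mice lie above both SLE.yaa mice for each gene, for Ifit1 with 211.8 and 345.7 against 48.91 and 68.33 vpm.

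Of the 4 marker genes, 3 fell in SLE.yaa B-ISG cells. Ifit1 stood at 211.8 and 345.7 vpm in WT and 48.91 and 68.33 vpm in SLE.yaa mice (log2 change -2.05, SE 0.276, adjusted p = 4.41e-06). Ifit3 stood at 592 and 1060 vpm against 200.1 and 291.2 vpm (-1.67, SE 0.237, adjusted p = 1.2e-05). Rsad2 stood at 110.7 and 188.8 vpm against 26.68 and 35.65 vpm (-1.92, SE 0.314, adjusted p = 0.000117). The groups did not overlap for these 3 genes, and WT 2 was the highest mouse each time. Isg15 did not overlap either, with 471.6 and 771.1 vpm against 311.2 and 377.3 vpm, but missed the threshold in limma (-0.80, SE 0.228, adjusted p = 0.0925). The median change of the 4 marker genes was -1.80, and -1.41 without WT 2. Since the clusters were made from such genes, these tests cannot tell lower levels in like cells from a different cluster border in each group.

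Of the 50 antiviral effectors tested, 8 fell and 0 rose, where 0.276% of all genes tested fell and 0.604% rose. In the list 45 lay below 0, and its median was -0.45 against 0.01 for all genes tested. Besides Ifit1, Ifit3 and Rsad2 the antiviral genes that fell were Ifit2, Ifit3b, Cmpk2, Oasl1 and Herc6. Cmpk2, a mitochondrial nucleotide kinase whose gene neighbours Rsad2, stood at 182.9 and 220.6 vpm against 62.24 and 71.3 vpm (-1.46, adjusted p = 0.000949 in limma). Oasl1, a relative of the oligoadenylate synthetases that restrains Irf7 translation, stood at 187.7 and 336.6 vpm against 88.92 and 83.19 vpm (-1.45, adjusted p = 0.000949). Herc6, an Isg15 ligase of the mouse, changed by -1.23 and Ifit2 by -1.14. Reads of Ifit3 and its close copy Ifit3b may not be told apart fully. Where values were averaged without scaling, the median of all genes shifted to 0.26, the list median was -0.15 and 32 of 50 lay below 0, with 6 falling and 2 rising; the split over all genes was then 210 higher and 10 lower, and with scaling to the sum alone 49 and 35.

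Regulators upstream of these genes were divided. Irf7 fell from 346.5 and 609.6 vpm to 217.9 and 205.0 vpm (-1.09, limma adjusted p = 0.00849), and Ddx58 fell from 240.6 and 434.4 to 137.8 and 175.3 vpm (-1.01, adjusted p = 0.0296). Socs1 rose from 336.9 and 81.88 vpm to 462.4 and 413.0 vpm (1.32, adjusted p = 0.0116), and Socs3 from 24.06 and 2.275 vpm to 111.2 and 104.0 vpm (2.52, adjusted p = 2.84e-05). Both encode inhibitors of JAK and STAT signalling, and WT 1 lay well above WT 2 for both. Socs1 changed by 0.37 without WT 2 and by 2.27 without WT 1, and without WT 2 the values were -0.69 for Irf7 and -0.60 for Ddx58, none of them past the threshold without WT 2. Counting them, 2 of 21 receptor and signalling genes rose and 1 fell, and of 14 sensors 1 fell, Ddx58. Over all genes tested 0.604% rose and 0.276% fell. Tlr7, which the Yaa segment carries, had 96.25 and 88.71 against 133.4 and 172.3 vpm and missed the threshold (0.66, SE 0.271, adjusted p = 0.456).

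Of 16 GTPase genes induced by IFN-gamma, 2 rose and 0 fell, where 0.604% of all genes tested rose and 0.276% fell. Iigp1, an immunity-related GTPase that attacks the vacuoles of intracellular parasites, showed the lowest adjusted p of all genes tested. It stood at 28.88 and 2.275 vpm in WT and 280.1 and 335.7 vpm in SLE.yaa mice (log2 change 3.86, SE 0.346, limma adjusted p = 4.99e-11). It was above 0 in 6.78% and 0.813% of WT B-ISG cells and in 44.7% and 44.4% of those of SLE.yaa mice, and in B cells in 0.32%, 0.0882%, 9.57% and 12%. Gbp6, a guanylate-binding protein gene, rose from 52.94 and 56.86 to 164.5 and 130.7 vpm (1.27, adjusted p = 0.00984). The other 14 missed the threshold, 9 of them above 0, and the list median was 0.40. The median was 0.26 without WT 2, with 0 genes past the threshold, and 0.20 without SLE.yaa 2, with 3 past it, and 1 gene passed without SLE.yaa 1. Irgm1 (-0.11), Igtp (0.10) and Tgtp2 (-0.06) were near 0, and Irgm1 and Igtp overlapped between the groups. The protease inhibitor gene Serpina3g rose from 346.5 and 100.1 to 755.8 and 707.1 vpm (1.90, adjusted p = 1.7e-05), and its neighbour Serpina3f from 48.13 and 4.549 to 173.4 and 148.5 vpm (2.55, adjusted p = 1.7e-05). Without WT 2 the changes were 1.06 for Serpina3g and 1.55 for Serpina3f. Genes of this cluster are close copies, so reads may be divided between them.

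Of 12 genes listed for age-associated B cells, a T-bet-positive subset that accumulates in lupus, 7 reached the minimum level, and Tbx21, Cxcr3 and Fas rose. These 3 reached it through the SLE.yaa mice alone, so their count is no support for the list. With no minimum, 11 genes had a median of 0.65. Tbx21, which encodes T-bet, was listed at 0 in both WT mice and stood at 35.57 and 47.54 vpm in SLE.yaa mice, from 5 of 47 and 12 of 81 cells (limma adjusted p = 0.00268). Cxcr3, a chemokine receptor gene, was also listed at 0 in both WT mice and stood at 40.01 and 20.8 vpm (adjusted p = 0.0378). Fas, a death receptor gene, stood at 4.813 and 0 vpm against 26.68 and 68.33 vpm (2.14, adjusted p = 0.00761). The groups did not overlap for these 3 genes. The levels came from few cells, and with a pseudocount of 2, a minimum of 50 vpm, or without WT 2, SLE.yaa 1 or SLE.yaa 2, 0 genes of the list passed in limma (the last 2 with 3 genes left to test). In B cells, 7 of the 9 genes of the list that were tested rose (Tbx21, Itgax, Itgam, Zeb2, Cxcr3, Fas and Bhlhe41), against 2.98% of all genes tested there. Without SLE.yaa 1 or without SLE.yaa 2 only 3 genes of the list reached the minimum in B cells. This count is thus no support for the list either. With no minimum, the median of 12 genes in B cells was 0.83. Cxcr3, for example, stood in B cells at 2.553 and 0.6253 against 49.33 and 52.93 vpm.

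Of the lists for resting subsets, follicular, marginal zone and transitional, 1 gene each fell and 0 rose. Of all genes tested, 0.276% fell and 0.604% rose, which is the background for the counts in this paragraph. Cr2, the complement receptor gene, fell from 259.9 and 325.3 to 155.6 and 127.8 vpm (-0.99, limma adjusted p = 0.0255) and was the only gene of 9 marginal zone genes past the threshold. Cd24a, high on transitional cells, fell from 216.6 and 216.1 to 88.92 and 80.22 vpm (-1.26, adjusted p = 0.0039). It was 1 of 7 transitional genes tested, of which 6 lay below 0, with a list median of -0.59 (-0.24 without WT 2 and -1.09 without SLE.yaa 2). Ccr7, a homing receptor gene, changed by -1.04 (adjusted p = 0.0475), 1 of 10 follicular genes, and by -0.61 without SLE.yaa 2. No gene of 12 for B cell identity or of 11 for MHC class II passed. H2-Q7, a nonclassical class I gene, rose from 380.2 and 141.0 to 502.4 and 760.6 vpm (1.37, adjusted p = 0.00184), 1 of 22 class I genes. Tmsb4x, an actin-binding protein gene on the Yaa list, rose from 5486 and 4863 to 9399 and 12970 vpm (1.10, limma adjusted p = 0.000757). All 9 genes of that list that reached the minimum lay above 0 (median 0.72), against 3877 of all 7611 genes tested. A gene can reach the minimum through the SLE.yaa mice alone. With no minimum, 10 of 12 genes of the list lay above 0 and 2 below (median 0.71). Of 13 activation genes, Cd83 (1.18) and Jun (1.38) rose. Without WT 2 the changes were 0.69 for H2-Q7 and 0.70 for Jun.

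The remaining genes among the 10 with the largest rises were Jchain, Ffar2, Pltp, Cfp and C1qc. Ffar2, a receptor for short-chain fatty acids, stood at 38.5 and 0 vpm against 75.58 and 121.8 vpm (2.27, limma adjusted p = 0.0012), and changed by 1.13 without WT 2. Pltp, a phospholipid transfer protein, stood at 19.25 and 20.47 against 115.6 and 142.6 vpm (2.21, adjusted p = 1.7e-05). Cfp, the complement regulator properdin, stood at 14.44 and 4.549 against 48.91 and 109.9 vpm (2.16, adjusted p = 0.000949). Jchain, a plasma cell gene for the link between antibody units, was listed at 0 in both WT mice and stood at 840.3 and 23.77 vpm, but 91.5% of its sum in SLE.yaa 1 came from 1 cell. Single cells likewise held 99.9% of the Ighg3 and 83.5% of the Igkc sum over the 47 B-ISG cells of SLE.yaa 1. Whether these maxima lay in the same cell was not looked at. C1qc, a macrophage complement gene, was listed at 0 in both WT mice, and 90.9% of its sum in SLE.yaa 1 came from 1 cell. Markers of monocytes and macrophages summed to 39.57, 156.6, 431.8 and 330.0 vpm in B-ISG cells and 25.17, 21.08, 92.36 and 204.5 vpm in B cells, with 3, 4, 8 and 9 of 12 genes above 0 and Fcgr1 and Treml4 at 0 in all 4 B-ISG profiles. Leaving out cells with at least 2 markers of another type gave 32 higher and 24 lower genes, with Gbp6, Cfp, Ly6c2, Xylt1 and Ccr7 no longer past the threshold. Leaving out cells with a Jchain value of 10 or more gave 40 and 19.

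**Figure D3:**
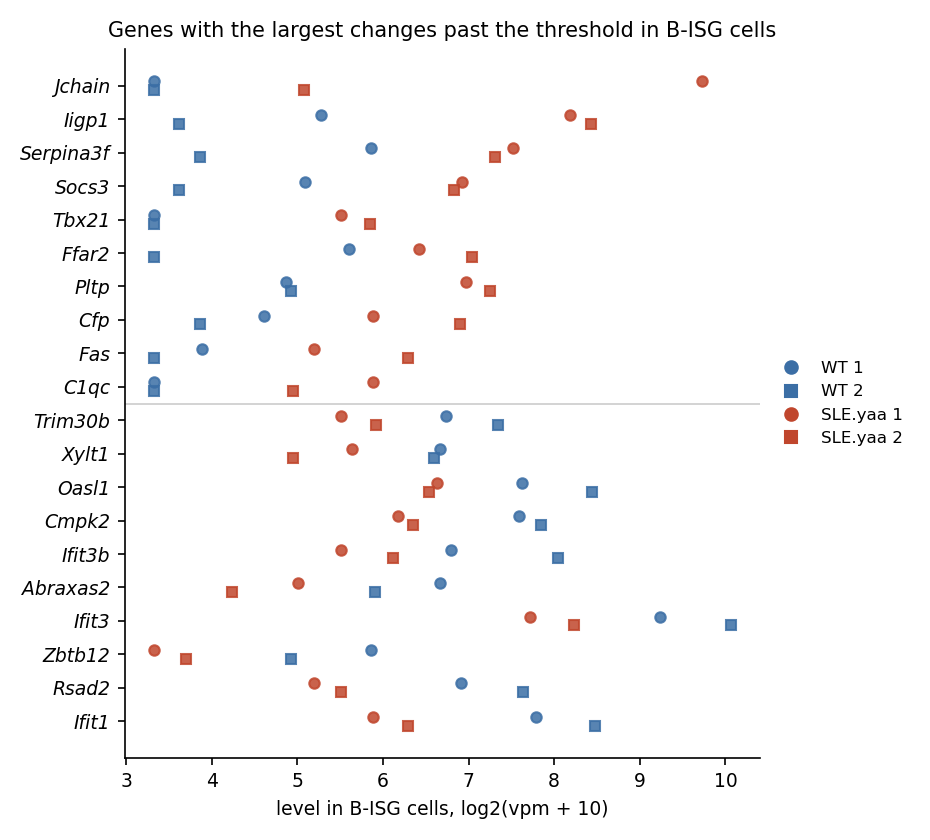
Levels (log2 of vpm plus 10, horizontal axis) in B-ISG cells of the 10 genes with the largest rise and the 10 with the largest fall past the threshold, 1 point per mouse. They were picked among genes without overlap between the groups, leaving out immunoglobulin segments and Gm and Rik models. Iigp1 stood at 28.88 and 2.275 vpm in WT and 280.1 and 335.7 vpm in SLE.yaa mice.

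Genes among the 10 largest falls outside the antiviral list were Zbtb12, Abraxas2, Xylt1 and Trim30b. Zbtb12, a zinc finger gene, stood at 48.13 and 20.47 vpm against 0 and 2.971 vpm (-1.89, limma adjusted p = 0.0427). It reached the 10 vpm minimum through the WT mice alone. With a pseudocount of 2, or without cells with a Jchain value of 10 or more, it no longer passed. Abraxas2, a scaffold of a deubiquitinase complex, stood at 91.44 and 50.04 against 22.23 and 8.913 vpm (-1.66, adjusted p = 0.0125). Xylt1 changed by -1.33 and Trim30b, of the TRIM family, by -1.32. Of 14 Schlafen and p200 genes, Slfn8 (-0.92, adjusted p = 0.0446) and Ifi208 (adjusted p = 0.0255) fell in limma, where 0.276% of all genes tested fell. The list median was -0.51. That median was -0.99 without WT 1, -0.80 without SLE.yaa 2 and -0.19 without WT 2, and neither gene passed with a pseudocount of 2, without scaling or on means of log values. With matched promoters, 7 of 17 genes that fell (41.2%) held the ISRE core shown in capitals above, against 1 of 35 that rose (2.86%) and 4.13% of 6181 genes tested. A GAS core was in 1 of 17 that fell, 6 of 35 that rose (17.1%) and 8.17% of those tested. These shares are a description.

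Without WT 2, the mouse with the most B-ISG cells and the highest antiviral levels, limma called 0 genes at the adjusted threshold and 360 at an unadjusted p under 0.05, and the antiviral median was -0.22 with 35 of 50 below 0. That fit left 1 WT mouse, which is assumed to vary like the SLE.yaa mice. Without SLE.yaa 2, 13 of 49 antiviral genes fell, and the antiviral median was -0.75 without WT 1 and -0.26 without SLE.yaa 1. Cells entered the cluster by their expression, and where its border fell in each genotype was not tested.

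In the B cells of the same mice, many antiviral and GTPase genes rose in SLE.yaa mice. Of 7948 genes tested with limma, 237 rose (2.98%) and 89 fell (1.12%), or 4.1% in all. Of 39 antiviral effectors 17 rose and 0 fell (median 0.35), and of 13 GTPase genes 11 rose (median 0.91), whereas 0 of 11 Schlafen and p200 genes did and of 9 transitional genes 2 rose and 5 fell. Without WT 2 the antiviral and GTPase counts were 9 and 7, and with no minimum on the level they were 2 of 55 and 2 of 16. Zbp1 rose in B cells from 32.28 and 22.51 vpm to 64.91 and 83.82 vpm (1.18, adjusted p = 0.000864), whereas in B-ISG cells it stood at 418.7 and 459.5 against 320.1 and 401.1 vpm (-0.28, adjusted p = 0.814), turning to 0.04 without scaling. Ifitm3, an inhibitor of viral entry, rose in B cells from 4.286 and 4.533 to 19.23 and 54.49 vpm (1.59, adjusted p = 0.00622) and overlapped in B-ISG cells, at 86.63 and 311.6 against 57.8 and 121.8 vpm. Both WT levels of Ifitm3 in B cells lay under the 10 vpm minimum, so it was tested there through the SLE.yaa mice alone, as was Iigp1. Without SLE.yaa 1 or without SLE.yaa 2, 33 antiviral genes reached the minimum in B cells in place of 39, and 11 GTPase genes in place of 13. Genes that rose in both cell types included Iigp1 (2.27 in B cells), Socs1 (1.82), Socs3 (2.09), Serpina3g (2.02), Gbp6 (1.40) and H2-Q7 (1.32). Cr2 (-1.21) and Cd24a (-1.19) fell in B cells too.

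**Figure D4:**
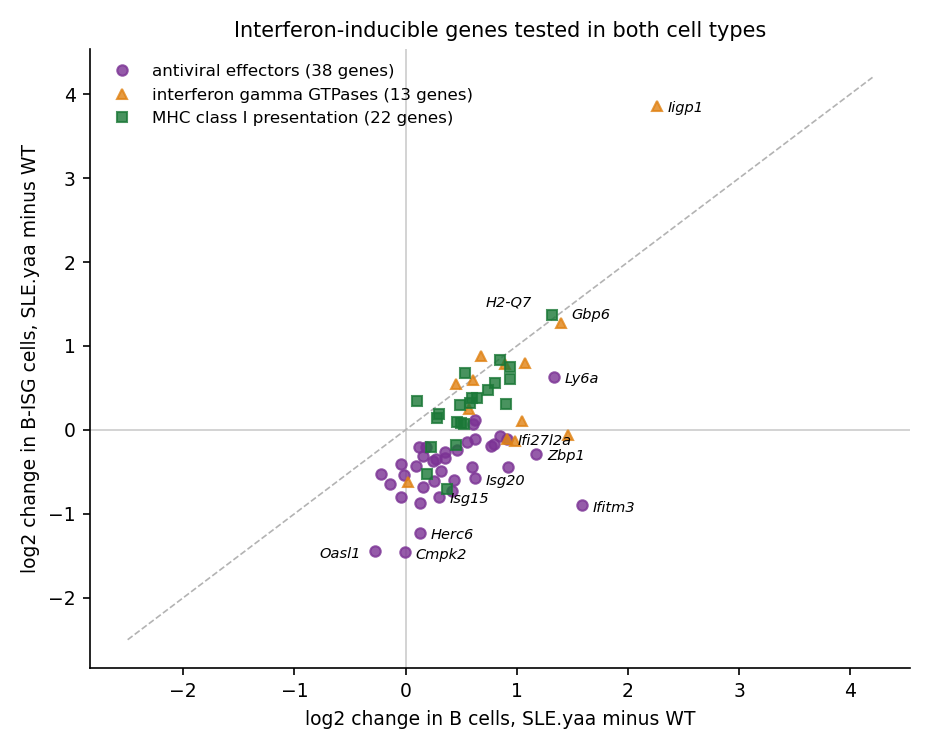
Log2 change from WT to SLE.yaa in B cells (horizontal axis) and in B-ISG cells (vertical axis) for antiviral effectors, GTPases and MHC class I genes tested in both; the dashed line marks equal changes. Antiviral genes lie mostly right of 0 and below it, such as Ifitm3 at 1.59 and -0.90, and Iigp1 lies above the line at 2.27 and 3.86. Both of these genes reached the minimum level in B cells through the SLE.yaa mice alone.

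The difference between the changes was tested on the B-ISG minus B differences within mice. Limma called 0 of 8138 genes (0%) at the adjusted threshold and 509 at an unadjusted p under 0.05, and the alternatives gave 0 or 1 call. So no single gene was shown to change differently in the 2 cell types. Of 51 antiviral effectors 49 had a difference below 0 (median -0.84), as had 12 of 14 Schlafen and p200 genes (median -0.83), 12 of 16 GTPases (median -0.27) and 4300 of all 8138 genes (median -0.02). The estimates were -2.14 for Ifit1 (adjusted p = 0.753), -2.06 for Rsad2 (adjusted p = 0.753), -1.79 for Ifit3 (adjusted p = 0.902) and -1.37 for Irf7 (adjusted p = 0.79).

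Across single B-ISG cells, genes of the antiviral programme were the most like the summed marker genes. Of 4748 genes seen in at least 10% of the cells, those whose values most resembled the summed marker genes were Ifit3b (mean Spearman rho over 4 mice 0.576), Slfn5 (0.555), Usp18 (0.52), Ifit2 (0.496), Tor3a (0.495), Bst2 (0.446), Lgals9 (0.439), Ms4a4c (0.431), Isg20 (0.424) and Trafd1 (0.404). Of GTPases and inhibitors also looked at, Ifi47 stood at 0.226, Irgm1 at 0.124, Tgtp2 at 0.0513, Igtp at -0.013, Socs1 at -0.0236 and Serpina3g at -0.133. In WT 2 alone they were higher, with 0.46 for Ifi47, 0.45 for Tgtp2, 0.43 for Irgm1, 0.32 for Socs1 and 0.27 for Serpina3g. These correlations share the depth of each cell and are given as a description over 310 cells.

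The B-ISG cells with none of the 4 marker transcripts numbered 22 and 12 in WT 1 and WT 2, and 16 and 30 in SLE.yaa 1 and SLE.yaa 2. Since the annotation came from expression, their difference from B cells is a description and was not tested. Their mean depth-adjusted Irgm1 value per cell was 1.91, 1.08, 2.19 and 2.03 (WT 1, WT 2, SLE.yaa 1, SLE.yaa 2), against 1.92, 1.44, 1.35 and 2.33 in B-ISG cells with at least 1 and 0.221, 0.18, 0.495 and 0.501 in B cells. Serpina3g stood at 2.0, 0, 4.69 and 3.57 in cells with none and at 0.757, 0.396, 3.06 and 2.57 in the others. Socs1 stood at 1.68, 0.417, 2.88 and 2.07 in cells with none and at 0.892, 0.279, 1.87 and 1.51 in the others. Socs1 was thus the higher in cells without a marker transcript in each mouse, and Serpina3g in each mouse except WT 2. In WT 2 the Socs1 mean without a marker came from 12 cells, and the rho of Socs1 with the summed markers was positive (0.32). Cells without these transcripts were annotated through other genes, and the part of that selection in this order was not tested. Slfn5 showed the reverse, at 0.364, 0.667, 0.375 and 0.867 against 2.24, 3.01, 1.74 and 2.88. The split uses the marker genes, and a cell can lack a transcript through shallow sampling.

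**Figure D5:**
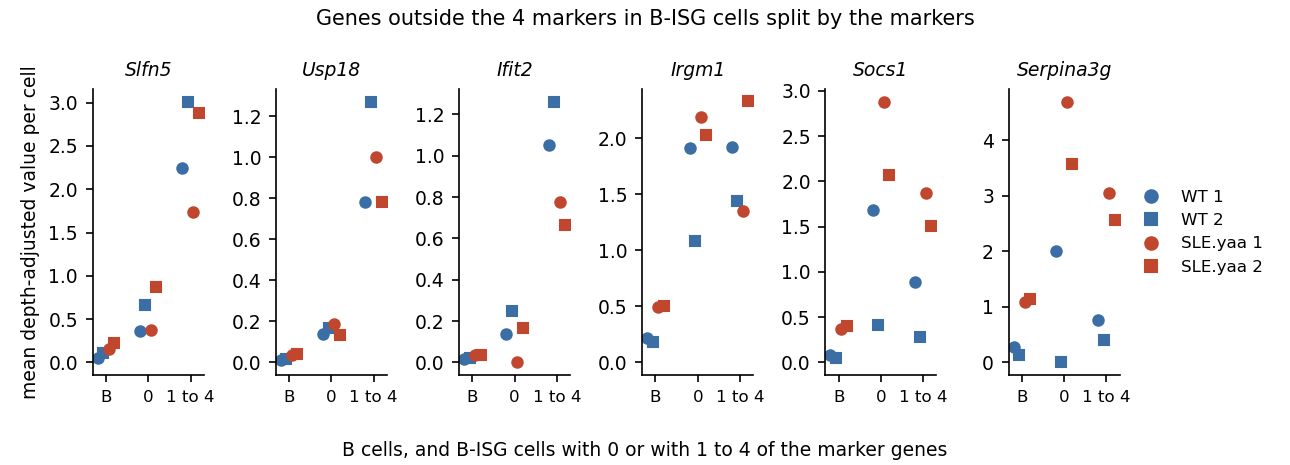
Mean depth-adjusted value per cell of selected interferon-inducible genes in B cells, in B-ISG cells with none of the 4 marker transcripts and in those with at least 1, 1 point per mouse. Slfn5 is higher with a marker transcript, at 3.01 against 0.667 in WT 2, and Socs1 is lower, at 1.87 against 2.88 in SLE.yaa 1.

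Most B-ISG cells carried unswitched heavy chains with germline V segments. A heavy chain was read in 267 B-ISG cells (52, 113, 39 and 63), which fell into 266 clones. IgD was the isotype of 17.3% (exact binomial interval 8.23 to 30.3), 15.9%, 33.3% and 39.7% of them, and of 17.2%, 15.9%, 33.4% and 40.7% of B cells. Both SLE.yaa mice thus lay above both WT mice in either cell type, with an exact permutation p of 0.333 (two-sided, adjusted 0.500 over 12 tests), the smallest that 2 against 2 mice allow. Switched isotypes were found in 0 of 52 and 0 of 113 WT cells, which allows shares of up to 5.77% and 2.65% at 3 counts of the total (exact binomial upper bounds 6.85% and 3.21%), and in 2 cells of each SLE.yaa mouse (5.13% and 3.17%), against 0.511%, 0.201%, 2.53% and 4.39% of B cells. V segments were identical to the germline in 100%, 96.5%, 94.9% and 98.4% of B-ISG cells and in 97.6%, 98%, 94.9% and 93.6% of B cells. IGHV1-26 was the most used gene, in 18 of 267 B-ISG cells (6.74%) and 6.71% of B cells.

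Clones with more than 1 cell were rare, and the junctions of both are shown because each links a B-ISG cell to another cell of its mouse.
WT 2 junction, IGHV9-3 with IGHJ1: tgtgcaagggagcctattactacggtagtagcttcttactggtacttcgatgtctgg
SLE.yaa 2 junction, IGHV1-36 with IGHJ4: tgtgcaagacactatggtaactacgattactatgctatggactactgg
In WT 2 the first, of 57 bases, was shared by 2 B-ISG cells, both with IgD and a germline V segment. In SLE.yaa 2 the second, of 48 bases, came from 1 B-ISG cell with IgM and a V identity of 99.32%. It belonged to a clone of 19 cells with 10 junctions, of which 6 were annotated as plasma cells (PC) and 4 as B, and 8 were not in the expression table.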

How the data were processed

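Spleen cells of 4 mice were measured, 1 expression and 1 heavy chain library each, with replicates numbered in accession order. Cell Ranger 5.0.0 and Seurat 4.0.0 are listed, with the build GRCm38 (mm10), in the submitters' processing notes. The deposited expression values are natural logs (ln) of 1 plus a whole number (within 1.64e-11), which the authors adjusted for depth in a way that no source used here gives. Raw counts had been allowed for in the plan, and since these are not counts, no count model was used. The deposited cell table gives UMI counts per cell and, from the authors, the percent of mitochondrial and ribosomal UMIs, cell cycle and heat shock scores, and the cell type. For each heavy chain the authors deposited counts of UMIs and reads, and V identity to the germline as a fraction. Each cell had at most 2999 genes, and no doublet caller was run. The 15 rows without a gene name held 0.044% of the values and were left out.

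Values were averaged per mouse and cell type, scaled to a sum of 1000000 and by TMM factors (edgeR 4.0.16). Genes reaching 10 vpm in 2 or more mice entered limma 3.58.1 (R 4.3.3, trend, robust variance off) as log2(vpm + 10), two-sided, with Benjamini-Hochberg adjustment and a threshold of 0.05. The mouse was the replicate. The p-values rest on the spread between 2 mice a group, which limma moderates toward a trend over all genes tested. They therefore do not measure the spread of a gene's own mice alone. Fits were tested on simulated data. Depth was 1002 to 26847 UMIs per cell. The members and the 28 gene lists (386 genes) were chosen with earlier results of these data known. Named genes were the 10 with the largest change in each direction past the threshold without overlap, the 15 with the largest B-ISG minus B difference, and members of the interferon, sensor and B cell subset lists, leaving out immunoglobulin segments and Gm and Rik models. Alternatives were other pseudocounts, minimums, scalings and cell sets, and each mouse left out.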

Additional observations from a re-analysis of the deposited data

How the results depend on the processing

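The number of genes past the threshold in B-ISG cells (67) was 43 with a minimum of 50 vpm, 220 without scaling and 179 on means of log values, and ranged from 0 (without WT 2) to 88 with a mouse left out. In B cells it was 326, and 119 with no minimum, 130 with a minimum of 50 vpm, 1069 without scaling, 867 on means of log values, and 127 to 1012 with a mouse left out, lowest without WT 2 and highest without SLE.yaa 1. For the difference between the changes it was 0, and 1 with a pseudocount of 50 and 0 to 1 with a mouse left out. Alternatives for B-ISG against B were chosen after seeing the data, as was leaving out cells with a Jchain value of 10 or more: the 130 higher genes were 73 with a pseudocount of 50, and the 13 lower genes were 117 with a pseudocount of 2, 3 with 50, 6 with a minimum of 50 vpm and 14 to 27 with a mouse left out. Zbp1 in B-ISG cells turned from -0.28 to 0.04 without scaling and 0.06 on means of log values. The change in V identity was -1.59 percentage points as the share of germline V segments and -0.00663 as a mean. Causes were not tested. Taking 1 heavy chain per cell was not run because no cell had more than 1. No paired analysis was possible because the labels give no replicate numbers. The number of B-ISG cells, 47 to 123 a mouse, limits what could be seen for genes of low level.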

Other observations

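The 4 marker genes were not confined to B-ISG cells. Their summed level, scaled to the sum alone, was 1398, 2391, 614.2 and 724 vpm in B-ISG cells of WT 1, WT 2, SLE.yaa 1 and SLE.yaa 2, and 32.67, 36.92, 44.02 and 43.98 vpm in B cells. In cells annotated PMN it was 334.2, 354.2, 1150 and 729.6 vpm, above the B-ISG cells of SLE.yaa 1, close to those of SLE.yaa 2 and below those of both WT mice. In CD4 cells it was 167.2, 249.8, 190.8 and 290.3 vpm. Of 21 interferon genes looked for, only Ifng was in the expression table, and it was too low in B-ISG and B cells to be measured. An alpha and beta T cell receptor record was found for 1 of 310 B-ISG cells and 41 of 11450 B cells.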
